A study of Sus scrofa with 6 samples.

Results

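10 genes of bone morphogenetic protein (BMP) signalling were followed through the chromatin of the pig somite and myotome. They are the ligands BMP2, BMP4 and BMP7, the secreted antagonists NOG (noggin), GREM1 (gremlin 1) and CHRD (chordin), the receptor BMPR1A, and the targets ID1, ID2 and ID3. These 10 of 28224 annotated genes were picked by name. Each gene was read in a window of its body plus 2000 bp upstream, and the peaks that overlapped the 10 windows merged into 58 regions, of 294825 regions in all. Single-cell ATAC-seq was the assay. The transposase Tn5 cuts open DNA, and the fragments of a cell share a barcode. There were 6 libraries, 1 for each stage and breed. The E18 pair were somites of embryonic day 18, the E21 pair somites of embryonic day 21 and the E28 pair myotomes of embryonic day 28, with a ZZ and a DZ library in each. ZZ were purebred Tibetan pigs and DZ were Duroc × Tibetan crosses. No genetic alteration and no treatment is named for any group. Each library pooled 5 embryos of 1 sow, so animals cannot be told apart, and the change of tissue cannot be told apart from the change of age at E28.

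BMP ligands are secreted dimers that bind receptor pairs of type I, such as BMPR1A, and type II. The receptors phosphorylate SMAD1, SMAD5 and SMAD9, which enter the nucleus with SMAD4 and switch on genes such as ID1, ID2 and ID3. Noggin, gremlin and chordin bind the ligands outside the cell and keep them from the receptors. In the somite, BMPs from the lateral plate, ectoderm and dorsal neural tube restrain myogenic differentiation, noggin relieves that restraint, and the ID proteins hold E-proteins away from the myogenic factors.

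The kept barcodes numbered 9286 to 11243 per library, with 89816504 to 133037579 counts in peaks. Depth and peak calling both moved with stage. The median count per barcode was 10913 and 11452 at E18 and 8084.5 and 8781.5 at E28, and the called peaks covered 191 and 168 Mb at E18 and 102 and 108 Mb at E28. Counts are numbers of Tn5 cut sites. A region without a called peak in a library is listed at 0 there, so regions were tested only where all 6 libraries had a peak. Any 2 libraries shared between 135 and 189 barcodes. All 8 somite and muscle markers (TBX6, TCF15, MEOX1, PAX3, PAX7, MYF5, MYOD1 and MYOG) had called peaks in every library. Their summed window level was 513 and 514 CPM (counts scaled per 1e6 counts of the library) at E18 and 401 and 461 at E28. In these marker lists, rose and fell mean that the window was called between E28 and E18 (adjusted p under 0.05, edgeR). Over all windows, 20.6% were called higher and 21.8% lower. Of the 8, MYOG (1.52) and MEOX1 (0.68) rose on the log2 scale and TBX6 (-1.26) and PAX3 (-0.84) fell. The 5 neural markers were also open, at 383 and 422 CPM at E18 and 219 and 247 at E28, and all 5 fell. Surface epithelium markers went from 188 and 180 to 93.8 and 94.0 CPM (3 of 4 fell), and lateral plate and heart markers from 264 and 176 to 89.3 and 158 (3 of 4 fell). HAND2, the heart-list marker without a call, went from 106 to 21.0 CPM in ZZ and from 24.7 to 56.7 in DZ. Mesenchyme markers went from 310 and 294 to 396 and 379 CPM (2 of 4 rose). Endothelium markers went from 150 and 162 to 91.4 and 102 CPM (3 of 4 fell), and blood markers from 74.0 and 68.7 to 49.4 and 45.0 (1 of the 2 tested fell). Of the 4 sclerotome markers none was called. GATA1, the third blood marker, was at 0 in all 6 libraries, and no other marker of these 8 lists was at 0 in any. The part of a shift in cell makeup in the values below was not tested, and in summed counts more cells of a type and more cuts per cell cannot be told apart.

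The promoters of the 5 genes whose promoter regions changed between E18 and E28 are shown first, since the stage results turn on them. Each line gives the 250 bases before the RefSeq start of the gene (Sscrofa11.1), 5′ to 3′ on the strand of the gene. Capitals mark 4 motifs, searched on both strands. The first is GGCGCC, the GC-rich element that BMP-activated SMADs bind. The next, GTCTG, is a SMAD box with the guanine that often follows it. The E-box is searched in the form CAGCTG, which muscle bHLH factors bind. The last is TATAAA, the TATA box that places the start of transcription.
ID1 (chr17:35316268-35316517, plus strand): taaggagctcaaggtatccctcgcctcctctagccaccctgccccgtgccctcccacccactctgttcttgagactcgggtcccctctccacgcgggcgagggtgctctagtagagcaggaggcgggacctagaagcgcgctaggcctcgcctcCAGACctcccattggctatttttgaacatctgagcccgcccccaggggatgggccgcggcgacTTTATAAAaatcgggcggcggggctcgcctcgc
ID2 (chr3:127503208-127503457, minus strand): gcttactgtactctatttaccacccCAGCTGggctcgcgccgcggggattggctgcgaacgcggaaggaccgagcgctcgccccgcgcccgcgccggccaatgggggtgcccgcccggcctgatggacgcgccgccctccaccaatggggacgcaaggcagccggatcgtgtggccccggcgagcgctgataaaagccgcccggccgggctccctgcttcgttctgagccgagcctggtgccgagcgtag
ID3 (chr6:81424170-81424419, minus strand): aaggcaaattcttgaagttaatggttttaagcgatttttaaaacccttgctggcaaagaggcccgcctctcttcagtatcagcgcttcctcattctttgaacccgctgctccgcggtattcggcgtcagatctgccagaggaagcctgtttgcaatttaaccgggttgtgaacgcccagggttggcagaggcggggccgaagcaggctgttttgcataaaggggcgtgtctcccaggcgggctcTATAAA
BMPR1A (chr14:87743020-87743269, plus strand): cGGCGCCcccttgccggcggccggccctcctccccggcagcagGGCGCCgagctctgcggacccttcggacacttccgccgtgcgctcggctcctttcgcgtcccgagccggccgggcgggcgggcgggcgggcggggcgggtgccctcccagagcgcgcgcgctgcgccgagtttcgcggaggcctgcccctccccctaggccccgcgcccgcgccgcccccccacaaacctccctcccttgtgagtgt
BMP2 (chr17:15750237-15750486, plus strand): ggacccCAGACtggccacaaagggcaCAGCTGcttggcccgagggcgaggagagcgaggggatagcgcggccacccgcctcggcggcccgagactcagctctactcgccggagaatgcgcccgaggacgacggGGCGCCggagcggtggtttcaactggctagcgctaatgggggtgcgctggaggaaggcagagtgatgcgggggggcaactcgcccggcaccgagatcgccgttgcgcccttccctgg

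The ID1 promoter held a TATA box that reads on both strands, in overlap, beginning 33 and 31 bases before the start, and a SMAD box 96 bases before it. The ID3 line ended in a TATA box that began 6 bases before the annotated start. BMPR1A held 2 GC-rich SMAD elements, and BMP2 held 1 of these, 1 SMAD box and 1 E-box. ID2 held only an E-box, 225 bases before the start. Over all 10 promoters, the GC-rich element was in 3, the SMAD box in 5, the E-box in 4 and the TATA box in 2. Among 19556 promoters of protein-coding genes of the same length the shares were 16.1%, 39.0%, 13.6% and 9.77%. The GC content of the 10 ran from 52.4% at ID3 to 80.0% at BMPR1A, with a median over all promoters of 57.6%. A match is a run of letters and was not tested as a binding site.

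The promoter regions of the ID genes and the first-start region of BMPR1A were called higher in the E28 myotome than in the E18 somite. The BMP2 region was called lower, and the promoter regions of BMP4, BMP7, NOG, GREM1 and CHRD did not pass the test. A promoter region is a whole merged region that overlaps a promoter, so its counts also come from sequence outside the promoter. Of 12 promoter regions (1 per gene, with a further region each at BMPR1A and ID3), 5 were called higher and 1 lower. Over all promoter regions tested, 23.1% were called higher and 17.1% lower. The median log2 fold change was 0.28 for the 12 and 0.07 for all. Calls are adjusted p under 0.05 in the edgeR quasi-likelihood test, adjusted over all 78533 regions, and levels are CPM after TMM normalization unless a count is named. The design leaves 2 residual degrees of freedom per region, and the test also borrows the spread across all regions. That residual is how far the 2 breeds differ in their change with stage, not a spread between replicate libraries of a group. Without the E18 DZ library, calls between E28 and E18 fell from 29162 to 8740 of all 78533 regions. Of the 24 regions tested here 3 were then called in place of 11, namely the first-start promoter of BMPR1A and 2 introns of BMP7.

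**Figure D1:**
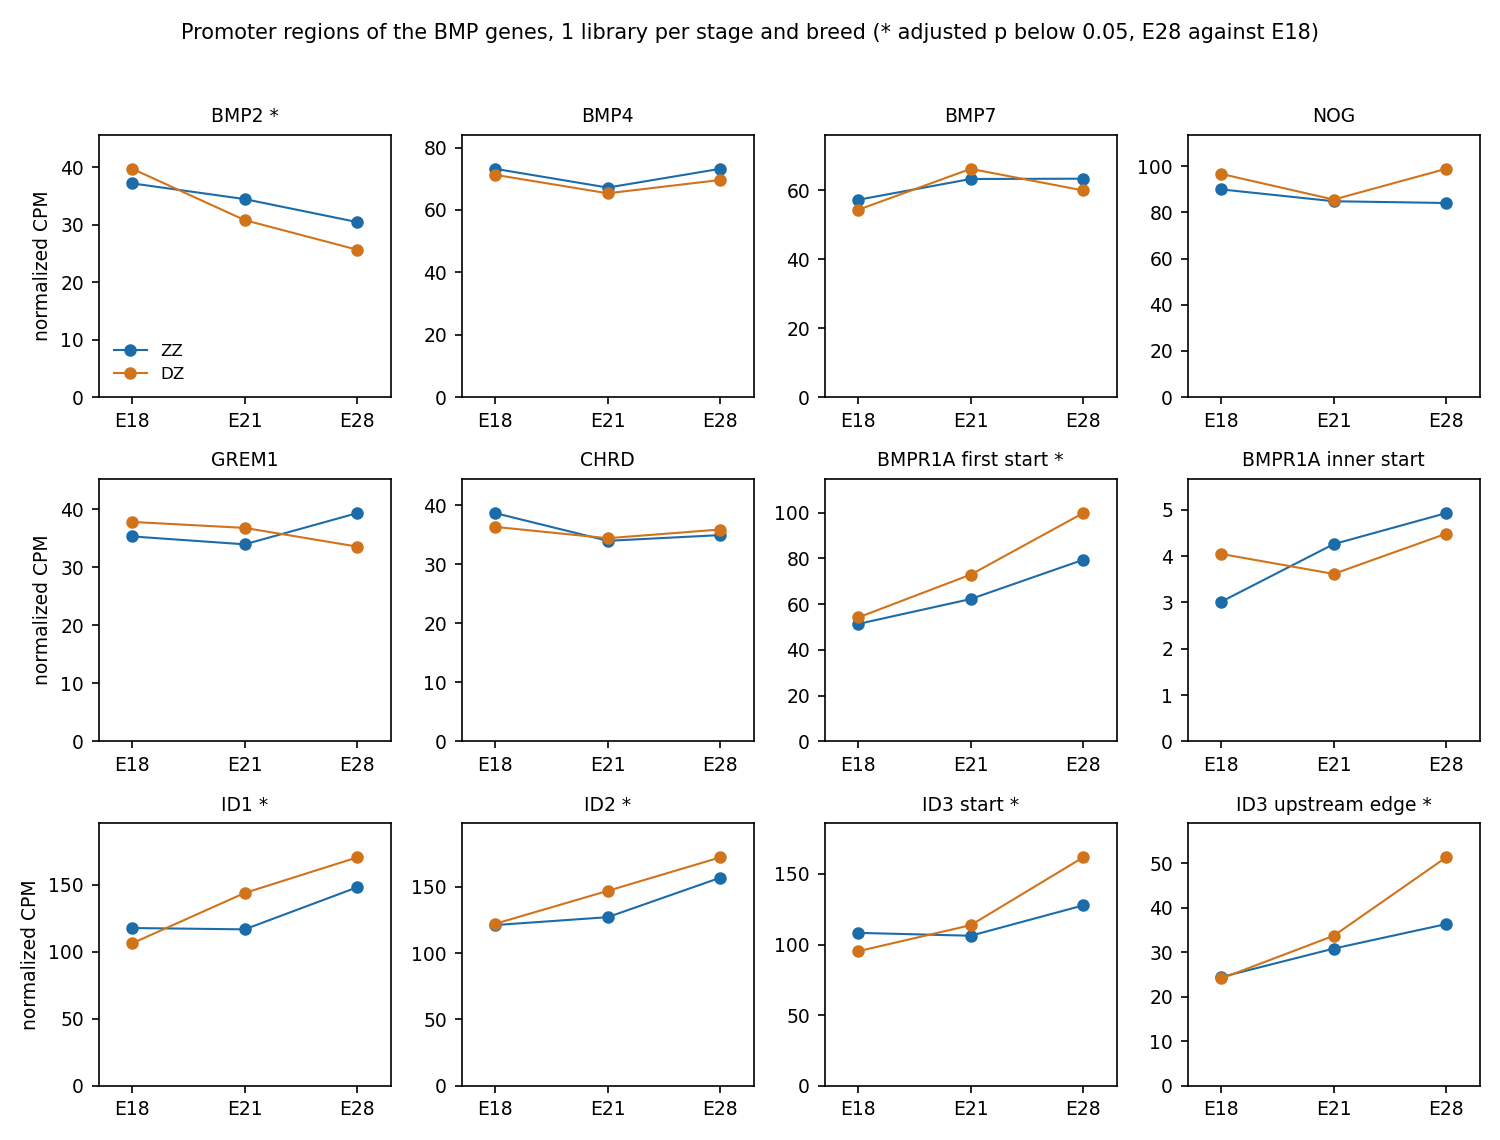
Normalized CPM (y axis, from 0) of the 12 promoter regions at E18, E21 and E28 (x axis), with 1 point per library, ZZ in blue and DZ in orange, and a star for an adjusted p below 0.05 between E28 and E18. In both breeds the BMPR1A first start, ID1, ID2 and both ID3 regions were higher in CPM at E28 than at E18, and BMP2 was lower.

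BMPR1A (chr14:87743270-87891790, plus strand) encodes a type I receptor that BMP2 and BMP4 bind. Its first-start promoter region (chr14:87741601-87745268) stood at 51.4 and 54.2 CPM in the E18 pair (ZZ then DZ, as in every pair of values given here), 62.3 and 72.9 in the E21 pair and 79.4 and 99.8 in the E28 pair. The 3 stages did not overlap, and DZ was above ZZ at each. The log2 fold change from E18 to E28 was 0.75 ± 0.10 (SE, 2 libraries per stage, edgeR adjusted p = 0.00445), the largest rise among the promoters apart from the upstream ID3 region. The call remained without E18 DZ and in every other leave-one-out fit of the region. The called peaks covered 2805 to 3248 bp, so the change per called base was bound to lie near that in CPM. It was 0.75 before the general shift on that scale, given below, and 0.32 over the median region. Thinned to 4000 counts per barcode, as the expected share over barcodes at least that deep, 12.5% and 13.5% of barcodes had a cut there at E18 and 18.8% and 22.3% at E28. Unthinned, these shares were 21.4%, 23.8%, 26.4% and 31.5%. The region at an inner start of BMPR1A (chr14:87849104-87849869) was low, at 3.02 and 4.05 CPM at E18 and 4.93 and 4.48 at E28, with a log2 fold change of 0.42 ± 0.31 that was not called (edgeR adjusted p = 0.333). The other 3 shared regions of BMPR1A, in introns and an exon, lay between -0.54 and 0.66 and none was called. The BMPR1A window overlaps the gene MMRN2 on the opposite strand.

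ID1 (chr17:35316518-35317742, plus strand) is an inhibitor of bHLH factors and a direct target of SMAD1 and SMAD5. Its single region (chr17:35314052-35320906) covered the whole gene, and 3225 of its 6855 bp lie in the window. The region stood at 118 and 106 CPM in the E18 pair, 117 and 144 in the E21 pair and 148 and 170 in the E28 pair. Both E28 libraries were above both E18 libraries, while E21 ZZ sat at the E18 level. The change was 0.50 ± 0.12 (edgeR adjusted p = 0.0222), and without E18 DZ it was 0.31 with an adjusted p of 0.100. The thinned share of barcodes with a cut went from 26.3% and 24.5% to 32.4% and 34.5%. Unthinned, it went from 40.8% and 38.9% to 41.7% and 45.2%, with little change in ZZ.

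ID2 (chr3:127500759-127503207, minus strand) has the same inhibitory role. Of the 8219 bp of its region (chr3:127501389-127509607), 3819 lie in the window. The region stood at 121 and 122 CPM in the E18 pair, 127 and 147 in the E21 pair and 157 and 172 in the E28 pair. E28 was above the other stages in both breeds. The log2 fold change was 0.43 ± 0.08 (edgeR adjusted p = 0.0104), and 0.35 with an adjusted p of 0.0665 without E18 DZ. The thinned share went from 26.9% and 27.3% to 33.5% and 34.7%, whereas the unthinned share went only from 41.6% and 42.7% to 43.2% and 45.7%. The window also holds an uncharacterized gene, LOC106509912, on the opposite strand, and ATAC-seq counts carry no strand.

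ID3 (chr6:81422541-81424169, minus strand) is a further HLH protein without a DNA-binding domain. The region over its start (chr6:81415898-81425592) runs past the 3′ end of the gene, with 3052 of its 9695 bp in the window. It stood at 108 and 95.3 CPM in the E18 pair, 106 and 114 in the E21 pair and 128 and 162 in the E28 pair. On the log2 scale the change was 0.50 ± 0.13 (edgeR adjusted p = 0.0288). The call was lost in 4 of the 6 leave-one-out fits, with 0.30 without E18 DZ (adjusted p = 0.156), 0.31 without E28 DZ (0.0910), 0.51 without E21 ZZ (0.0731) and 0.50 without E21 DZ (0.0754). A second region farther upstream (chr6:81426126-81428157), of which 44 bp lie in the window, stood at 24.4 and 24.1 CPM in the E18 pair, 30.8 and 33.7 in the E21 pair and 36.4 and 51.4 in the E28 pair. Its log2 fold change was 0.83 ± 0.15 (edgeR adjusted p = 0.0104). E28 was above E21 and E21 above E18 in both breeds, while the called length fell from 2027 and 2000 bp to 1419 and 1676 bp. Without E18 DZ the change of the upstream region was 0.67 with an adjusted p of 0.0811.

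Among the ligands, BMP2 (chr17:15750487-15762982, plus strand), which acts early in mesoderm and cartilage, was the only gene whose promoter was called lower. The region (chr17:15749370-15753041) stood at 37.2 and 39.7 CPM in the E18 pair, 34.5 and 30.8 in the E21 pair and 30.5 and 25.7 in the E28 pair. The level was lower at each later stage in both breeds. From E18 to E28 the log2 fold change was -0.46 ± 0.13 (edgeR adjusted p = 0.0353), close to the threshold. It missed the threshold in 5 of the 6 leave-one-out fits, with -0.31 and an adjusted p of 0.326 without E18 DZ. The called length was nearly constant, from 3417 to 3667 bp. The thinned share of barcodes with a cut was 9.32% and 9.90% at E18 and 7.70% and 6.11% at E28. A region at the end of the gene had peaks at E18 alone, with 155 counts in ZZ and 130 in DZ, and no peak was called there in the other 4 libraries.

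BMP4 (chr1:183415989-183422888, minus strand) is the ligand made by dorsal ectoderm and lateral plate. Its single region (chr1:183417331-183424089) stood at 73.2 and 71.3 CPM in the E18 pair, 67.2 and 65.3 in the E21 pair and 73.2 and 69.6 in the E28 pair. The E18 and E28 libraries overlapped and both E21 libraries lay below them. The log2 fold change from E18 to E28 was -0.02 ± 0.08 (edgeR adjusted p = 0.884). The BMP7 promoter region (chr17:57667733-57679119) stood at 57.2 and 54.3 CPM in the E18 pair, 63.3 and 66.2 in the E21 pair and 63.3 and 59.9 in the E28 pair. Both later pairs lay above both E18 libraries, and the change of 0.14 ± 0.09 from E18 to E28 was not called (edgeR adjusted p = 0.243).

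The antagonist promoters moved within 0.1 on the log2 scale between E18 and E28. NOG (chr12:32891321-32892206, plus strand) has a single exon, and 2886 of the 6695 bp of its region (chr12:32889277-32895971) lie in the window. The region stood at 89.9 and 96.6 CPM in the E18 pair, 84.8 and 85.5 in the E21 pair and 84.1 and 98.9 in the E28 pair. The log2 fold change of NOG was -0.03 ± 0.09. GREM1 (chr1:136617041-136629293, plus strand) encodes a secreted binder of BMP2 and BMP4. Its promoter region (chr1:136615042-136619887) stood at 35.3 and 37.8 CPM in the E18 pair, 33.9 and 36.8 in the E21 pair and 39.3 and 33.5 in the E28 pair, with a change of -0.00478 ± 0.13. Chordin holds BMPs until it is cleaved by tolloid proteases. The CHRD promoter region (chr13:122265823-122270582) stood at 38.6 and 36.3 CPM in the E18 pair, 33.9 and 34.4 in the E21 pair and 34.9 and 35.9 in the E28 pair, with a change of -0.08 ± 0.10. None of the 3 was called (edgeR adjusted p between 0.556 and 0.980). The E18 and E28 libraries overlapped at NOG and GREM1, and at CHRD both E28 libraries lay just below E18. The called length of the GREM1 region shrank from 4846 and 4333 bp to 2936 and 2781 bp, and its CPM held level over fewer bases.

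Because called peaks were shorter at E28, the same counts were also read per called base. On that scale the median of all shared regions moved to 0.43, so the changes are given relative to it. Of the 24 regions, 18 were then called higher and 1 lower, beside 45.8% and 6.39% of all regions, where the CPM gave 9 and 2. The BMPR1A first start was then 0.32 above the median region, the ID3 start 0.21, the upstream ID3 region 0.79, ID2 0.12 and ID1 0.08. GREM1 was 0.25 above it. BMP2 lay at -0.81 relative to the median region, BMP4 at -0.41, NOG at -0.40, CHRD at -0.13 and BMP7 at -0.09. The order of the promoters was thus kept at its ends. Before the median is taken off, ID1 and ID2 changed by 0.51 and 0.55 per called base, beside 0.50 and 0.43 in CPM. Called peaks at ID1 kept nearly the same length, between 6660 and 6839 bp in every library. Its value per called base was therefore bound to lie near that in CPM, and it tests nothing about called length. For whole windows the median moved to 0.54, which ID2 (0.54) matched and ID1 (0.51) did not reach. Whether the promoters differ from that median was not tested.

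Levels of the promoter regions were also read per called kilobase. This divides by the called length, so the order also carries that length. Called length was 2805 to 3248 bp at the BMPR1A first start and 8531 to 10732 bp at BMP7. In CPM the BMP7 region (54.3 to 66.2) stood above BMP2 (25.7 to 39.7), GREM1 (33.5 to 39.3) and CHRD (33.9 to 38.6). Which promoter is the more open was not tested. The mean over the 6 libraries was highest at the BMPR1A first start (23.6 CPM per kb), followed by ID1 (19.8), the upstream ID3 region (18.8), ID2 (18.0), NOG (13.8), the ID3 start (13.4), BMP4 (12.0), GREM1 (10.6), BMP2 (9.24), CHRD (8.49), the BMPR1A inner start (6.94) and BMP7 (6.37). The libraries of neighbours in this order overlapped throughout, and the order changed with stage. The upstream ID3 region stood at 12.1 CPM per kb in both E18 libraries, under ID2 (14.8 and 15.0) and NOG (13.6 and 14.6), and at 25.6 and 30.6 at E28, over ID1 in each breed (21.7 and 25.6). The ID1 region ran from 15.8 to 25.6 CPM per kb and the ID2 region from 14.8 to 22.0.

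The 10 windows held 12 further regions with called peaks throughout the 6 libraries. BMP7 (chr17:57567770-57676516, minus strand), a ligand needed for kidney and eye development, held 8 of these 12. Of its 8, 4 were called higher at E28 than at E18, all in introns, and of the other 4, 1 was called lower, at the end of CHRD. Among all such regions in gene windows, 17.6% were called higher and 19% lower. The median log2 fold change was 0.59 for the 12 and -0.08 for all.

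**Figure D2:**
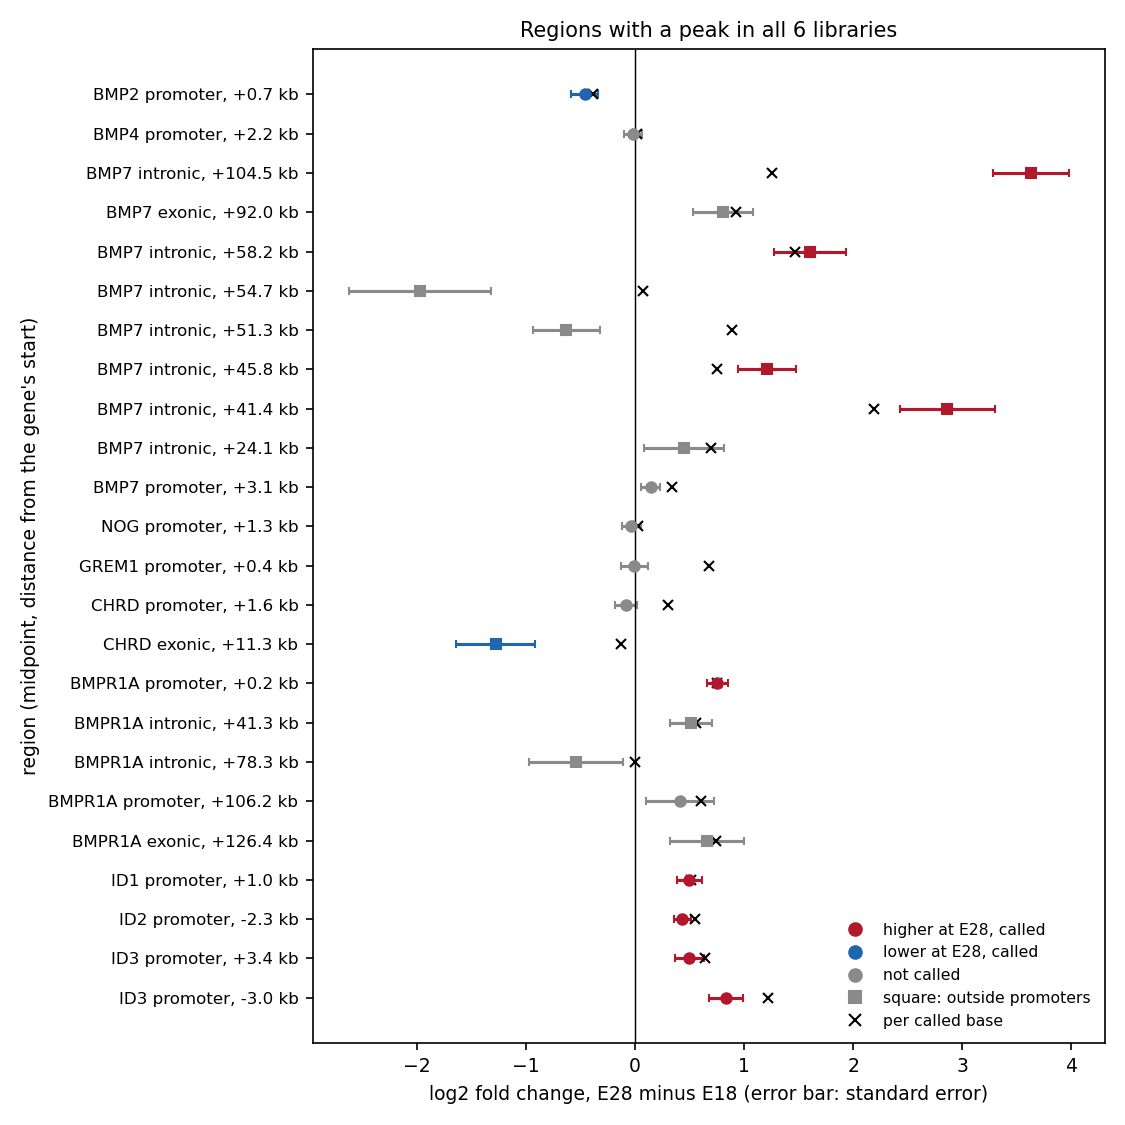
Log2 fold change from E18 to E28 (x axis) of the 24 regions with a peak in all 6 libraries (y axis, with the distance of the midpoint from the gene start in kb), with the standard error as bar, circles for promoters and squares for other regions, and crosses for the change per called base. Red regions were called higher (9), blue lower (2), and the 2 BMP7 introns at 3.63 and 2.86 lie farthest from 0.

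The BMP7 intron region with the largest log2 fold change in CPM (chr17:57570987-57573057), near the 3′ end of the gene, stood at 0.51 and 0.93 CPM in the E18 pair, 5.48 and 9.40 in the E21 pair and 8.37 and 8.67 in the E28 pair. Both E21 libraries were above both E18 libraries. The change was 3.63 ± 0.35 between E28 and E18 (edgeR adjusted p = 0.00287), 3.37 ± 0.34 between E21 and E18 (adjusted p = 0.0186) and 0.26 ± 0.31 between E28 and E21 (adjusted p = 0.614). It was the only 1 of the 24 regions called between E21 and E18, beside 6.59% of all regions. That call was lost without E18 DZ (3.61, adjusted p = 0.0699), E21 ZZ (3.53, 0.115) or E21 DZ (3.18, 0.256), while leaving out either E28 library gave 5 called regions, beside 21.4% (without ZZ) and 21.7% (without DZ) of all regions. The called length went with it, from 209 and 480 bp at E18 to 1627 and 1686 bp at E28, and per called base the change was 1.25 (adjusted p = 0.000552), or 0.82 over the median region. The thinned share of barcodes with a cut went from 0.17% and 0.28% to 2.18% and 2.01%. Only cuts inside the called peaks of each library enter such shares, so this rise carries the same difference in called length.

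The region at chr17:57634390-57635765 stood at 2.30 and 1.19 CPM in the E18 pair, 4.97 and 2.05 in the E21 pair and 10.8 and 12.4 in the E28 pair, so E28 was above both earlier stages in both breeds. The log2 fold change from E18 to E28 was 2.86 ± 0.44 (edgeR adjusted p = 0.00669), and between E28 and E21 it was 1.89 ± 0.42 (adjusted p = 0.0546). Per called base the change from E18 was 2.19, or 1.76 over the median region. A further 2 changes, with smaller log2 fold changes in CPM, were called. The region at chr17:57617833-57618823 went from 5.52 and 4.61 CPM to 16.1 and 14.8, with a log2 fold change of 1.60 ± 0.33 (edgeR adjusted p = 0.0145). Per called base this was 1.46, or 1.04 over the median region, above the 0.82 of the region near the 3′ end. The region at chr17:57630271-57631196 went from 2.90 and 3.22 CPM to 6.79 and 7.35, with 1.21 ± 0.26 (edgeR adjusted p = 0.0176), and per called base it changed by 0.75, or 0.32 over the median region. Both calls ended without E18 DZ, with 1.32 (adjusted p = 0.0977) and 1.24 (adjusted p = 0.144), and the second also ended without E18 ZZ, with 1.18 (adjusted p = 0.124).

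The 300 bases around the centre of the sequence that both E28 libraries called in the first 2 of these regions follow on the plus strand, with the same motifs in capitals. These regions carry the largest log2 fold changes in CPM between E18 and E28.
BMP7 intron, near the 3′ end (chr17:57571809-57572108): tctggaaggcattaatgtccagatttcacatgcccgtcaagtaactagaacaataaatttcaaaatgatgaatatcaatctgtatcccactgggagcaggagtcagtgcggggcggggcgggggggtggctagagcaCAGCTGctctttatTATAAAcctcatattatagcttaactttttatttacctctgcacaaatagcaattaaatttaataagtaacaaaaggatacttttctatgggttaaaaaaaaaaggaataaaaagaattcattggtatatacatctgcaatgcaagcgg
BMP7 intron, middle (chr17:57635136-57635435): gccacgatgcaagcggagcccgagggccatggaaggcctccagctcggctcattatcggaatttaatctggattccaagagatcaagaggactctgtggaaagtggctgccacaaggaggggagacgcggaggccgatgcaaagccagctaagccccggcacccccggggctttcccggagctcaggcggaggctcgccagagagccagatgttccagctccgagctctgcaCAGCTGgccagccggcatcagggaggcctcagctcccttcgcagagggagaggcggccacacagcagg

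The first is AT-rich (37.3% GC) and holds an E-box and a TATA box, and the second has 64.0% GC and 1 E-box. Neither SMAD motif is in these 300 bases of either. The central 300 bases of the other 2 called BMP7 introns hold the SMAD box, with 1 match in the region at chr17:57617833-57618823 and 2 in that at chr17:57630271-57631196. Among the central 300 bases of the 78533 shared regions, the E-box was in 24.0%, the TATA box in 12.2%, the SMAD box in 52.4% and the GC-rich element in 9.98%.

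Other BMP7 regions did not pass the test. The region at chr17:57621233-57622489 went from 3.99 and 2.57 CPM in the E18 pair to 0.42 and 1.45 in the E28 pair. Per called base its change was 0.07, or -0.36 relative to the median region. In CPM the change was -1.97 ± 0.65 and was not called (edgeR adjusted p = 0.0593). It was -3.02 and called without E28 DZ (adjusted p = 0.00622), -1.08 without E28 ZZ (0.159) and -1.14 without E18 ZZ (0.325). The neighbouring region at chr17:57624134-57626262 stood at 10.2 and 7.33 CPM at E18 and 6.33 and 4.95 at E28, with -0.63 ± 0.31 (edgeR adjusted p = 0.155). Per called base this change turned to 0.89 (adjusted p = 0.00333), or 0.47 over the median region. The exonic region at chr17:57583786-57585149 went from 9.73 and 7.88 to 12.3 and 19.2 CPM, with 0.81 ± 0.28 (edgeR adjusted p = 0.0645), and was called without E28 ZZ (1.14, adjusted p = 0.0142). Of the 29 BMP7 regions, 25 had a peak in E18 ZZ and 18 in E18 DZ, against 12 in E28 ZZ and 15 in E28 DZ. 10 regions had peaks at E18 alone and 2 at E28 alone. Of those 2, 1 was called in both E28 libraries (chr17:57605570-57606119, with 89 counts in ZZ and 241 in DZ), and the other held 2 counts in E28 DZ. Among all 58 regions, 17 had peaks at E18 alone (29.3%, beside 24.8% of all 294825 regions), 1 at E21 alone (1.72%, beside 7.94%) and 3 at E28 alone (5.17%, beside 7.38%), while 24 were in all 6 libraries (41.4%, beside 26.6% of all regions). E18 ZZ, the library with the most counts in peaks, held the most of them (50 of 58), and depth was not separated from stage in this count.

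**Figure D3:**
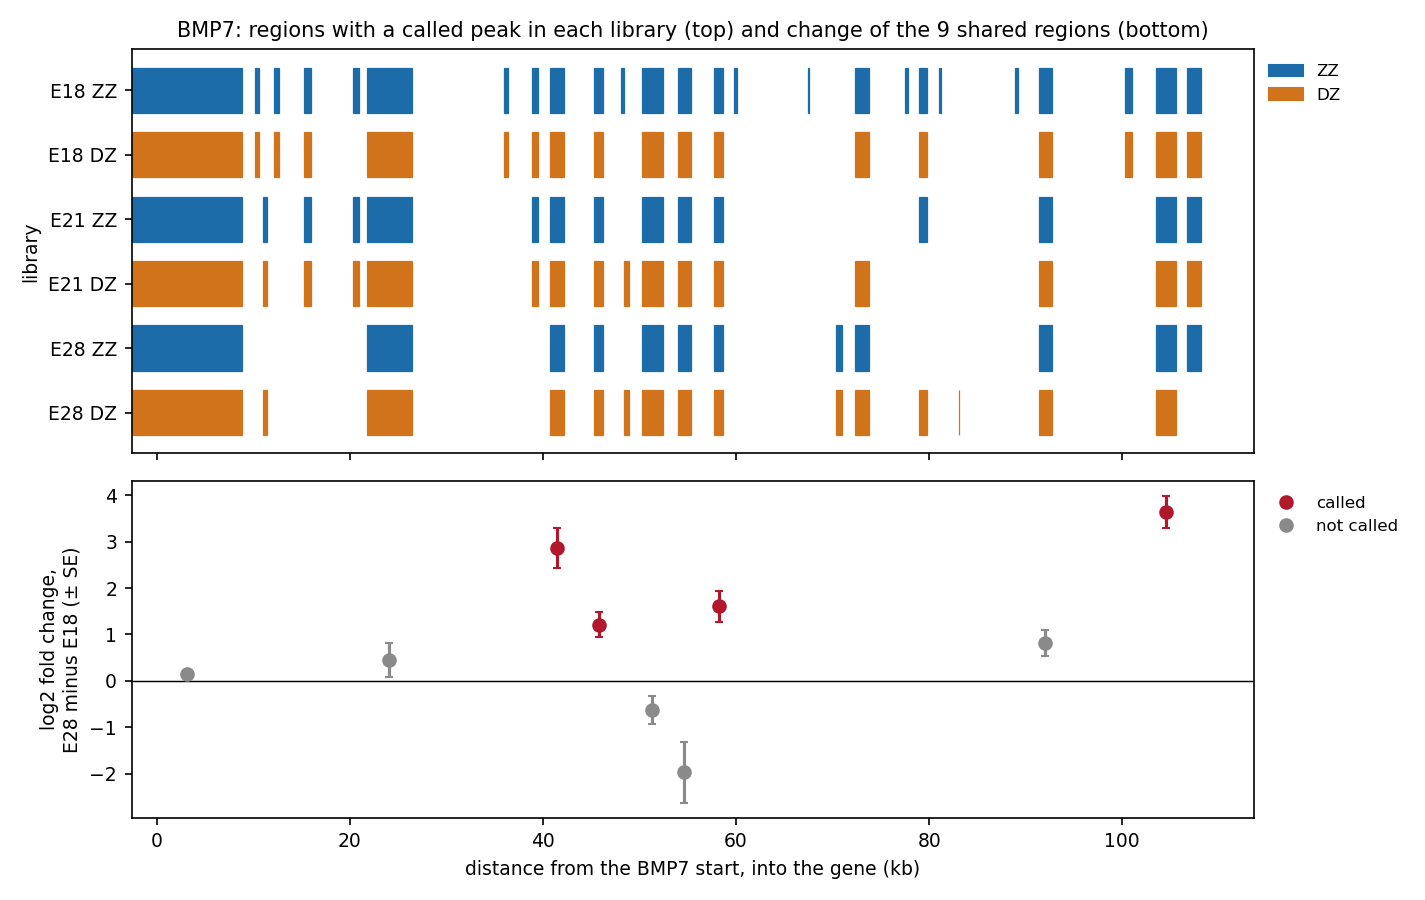
Top, the merged BMP7 regions (drawn at their full merged length) that had a called peak in each library, by distance in kb from the start into the gene (x axis), ZZ in blue and DZ in orange. Bottom, the log2 fold change ± SE between E28 and E18 of the 9 regions shared by all 6 libraries, with the 4 called ones in red. The promoter end changed by 0.14 and the region farthest into the gene by 3.63.

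CHRD (chr13:122266632-122277513, plus strand) had the only region outside promoters that was called lower. It lies at the end of the gene (chr13:122277441-122278467), with 73 bp inside the window. It went from 4.88 and 5.49 CPM in the E18 pair to 2.92 and 2.27 in the E21 pair and 1.70 and 2.62 in the E28 pair, and the log2 fold change from E18 to E28 was -1.27 ± 0.36 (edgeR adjusted p = 0.0389). The called length fell from 1027 and 958 bp to 402 and 488 bp. Per called base the change was -0.12 (edgeR adjusted p = 0.710), or -0.55 relative to the median region. The call was lost in 4 of the 6 leave-one-out fits, with -1.30 without E18 ZZ (adjusted p = 0.156), -1.25 without E18 DZ (0.235), -1.28 without E21 ZZ (0.0517) and -0.94 without E28 ZZ (0.117). The gene THPO overlaps the CHRD window on the opposite strand.

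Summed over whole gene windows, 3 of the 10 genes were called higher at E28 than at E18 and 2 lower, beside 20.6% and 21.8% of all 23286 windows tested. Per called base the split was 7 higher and 0 lower, beside 66.3% and 2.17% of the 20701 windows tested on that scale. The windows are normalized to window counts, so their CPM differ from the region CPM above. BMPR1A rose from 63.4 and 67.6 to 99.1 and 116 CPM (log2 fold change 0.71 ± 0.08, edgeR adjusted p = 0.00628). ID1 rose by 0.51 ± 0.11 (edgeR adjusted p = 0.0218) and ID2 by 0.44 ± 0.08 (adjusted p = 0.0124). BMP2 fell by 0.50 ± 0.13 (edgeR adjusted p = 0.0331). CHRD went from 39.7 and 38.6 to 30.9 and 30.9 CPM, a change of -0.34 ± 0.09 (edgeR adjusted p = 0.0360). With promoter peaks alone it was -0.17 and not called, and per called base it turned to 0.54, equal to the median of all windows on that scale (0.54). BMP7 stood at 112 and 98.3 CPM at E18 and 138 and 130 at E28 and just missed the threshold (0.35 ± 0.11, edgeR adjusted p = 0.0512). BMP4 stood at -0.01 and GREM1 at -0.02. Leaving out E18 DZ left 0 of the 10 windows called, beside 5.26% of all windows in that fit, and the BMPR1A window then had 0.64 with an adjusted p of 0.0610. The other leave-one-out fits called 3 or 4 (18.3% to 40.8% of all windows), and over all 6 the CHRD call was lost in 5 and the BMP2 call in 4. The ID1 call was also lost without E28 DZ (adjusted p = 0.0746) and with promoter peaks alone (0.0609), and the ID2 call without E18 ZZ (0.0573).

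In the ID3 and NOG windows the called length differed widely between libraries. The ID3 window stood at 114 and 54.7 CPM in the E18 pair, 71.5 and 75.9 in the E21 pair and 55.1 and 138 in the E28 pair. The called length that entered it was 11719 and 5317 bp, 5256 and 4836 bp, and 2788 and 8145 bp, longest in the 2 libraries with the highest CPM (E18 ZZ and E28 DZ). Its log2 fold change from E18 to E28 was 0.15 ± 0.55 (edgeR adjusted p = 0.843), where its start region gave 0.50. The NOG window dropped to 45.8 CPM in E28 ZZ, where 2971 bp were called, and stood at 76.2 to 85.1 in the other libraries, with 6591 to 6692 bp called. Its log2 fold change was -0.35 (edgeR adjusted p = 0.272), and -0.83 and called without E28 DZ (adjusted p = 0.00984), where E28 ZZ alone stands for its stage, against 0.03 without E28 ZZ (adjusted p = 0.846). The NOG region, merged across libraries, stood at 84.1 CPM in E28 ZZ.

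Between consecutive stages few calls were made. Of the 10 windows, 0 were called between E21 and E18 (1.93% of all windows) and 0 between E28 and E21 (5.71%), with 3 and 2 at an unadjusted p under 0.05 in the same edgeR test (29.1% and 28.4% of all windows), and 3 and 2 called by DESeq2 (34.1% and 34.5%). Of the 24 regions, 1 was called between E21 and E18 and 0 between E28 and E21 (7.13% of all regions), where 7 had an unadjusted p under 0.05 (28.9% of all regions) and DESeq2 called 5 (19.7%). Per called base, the windows gave 4 and 4 (20.8% and 43.1% of all windows) and the regions 5 and 10 (17.6% and 32.4% of all regions). In the BMPR1A promoter the 2 steps were 0.35 ± 0.09 and 0.40 ± 0.09 (edgeR adjusted p = 0.0812 and 0.0597). In the ID2 region they were 0.17 ± 0.08 and 0.27 ± 0.08 (adjusted p = 0.229 and 0.0940).

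The breeds were compared with stage as a term, to see whether these genes differ between Tibetan pigs and their Duroc crosses. None of the 10 windows and none of the 24 regions was called by edgeR, and DESeq2 also called 0 of either, beside 529 of all windows (2.32%) and 159 of all regions (0.202%). The edgeR background was 0.00429% of all windows (1 window) and 0.0% of all regions (0 regions). At an unadjusted p under 0.05, 1 window and 1 region of these genes passed, beside 5.1% of all windows and 4.94% of all regions. Both belonged to BMPR1A, whose first-start promoter was higher in DZ at every stage, with a log2 fold change between DZ and ZZ of 0.21 ± 0.08 (edgeR adjusted p = 0.847). The window differences ran from -0.13 for BMP2 to 0.32 for NOG, and the region differences from -0.67 to 0.55, both of these ends in BMP7 introns. Equality of the breeds was not shown.

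In CPM the other genes of the pathway moved in both directions. Of 36 further BMP genes, 7 windows were called higher at E28 than at E18 and 8 lower, near the background of 20.6% and 21.8%. Per called base the split was instead 22 higher and 0 lower of the 35 tested, beside the same 66.3% and 2.17%. By role, the ligands gave 2 higher and 1 lower of 6, the receptors 2 and 1 of 5, the SMAD effectors 1 and 1 of 4, the inhibitory SMADs and BAMBI 0 of 3, the extracellular modulators 1 and 3 of 12, and the further targets 1 and 2 of 6. The 8 lower include CER1, which is listed at 0 at E21 and E28, so no fold is given for it.

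**Figure D4:**
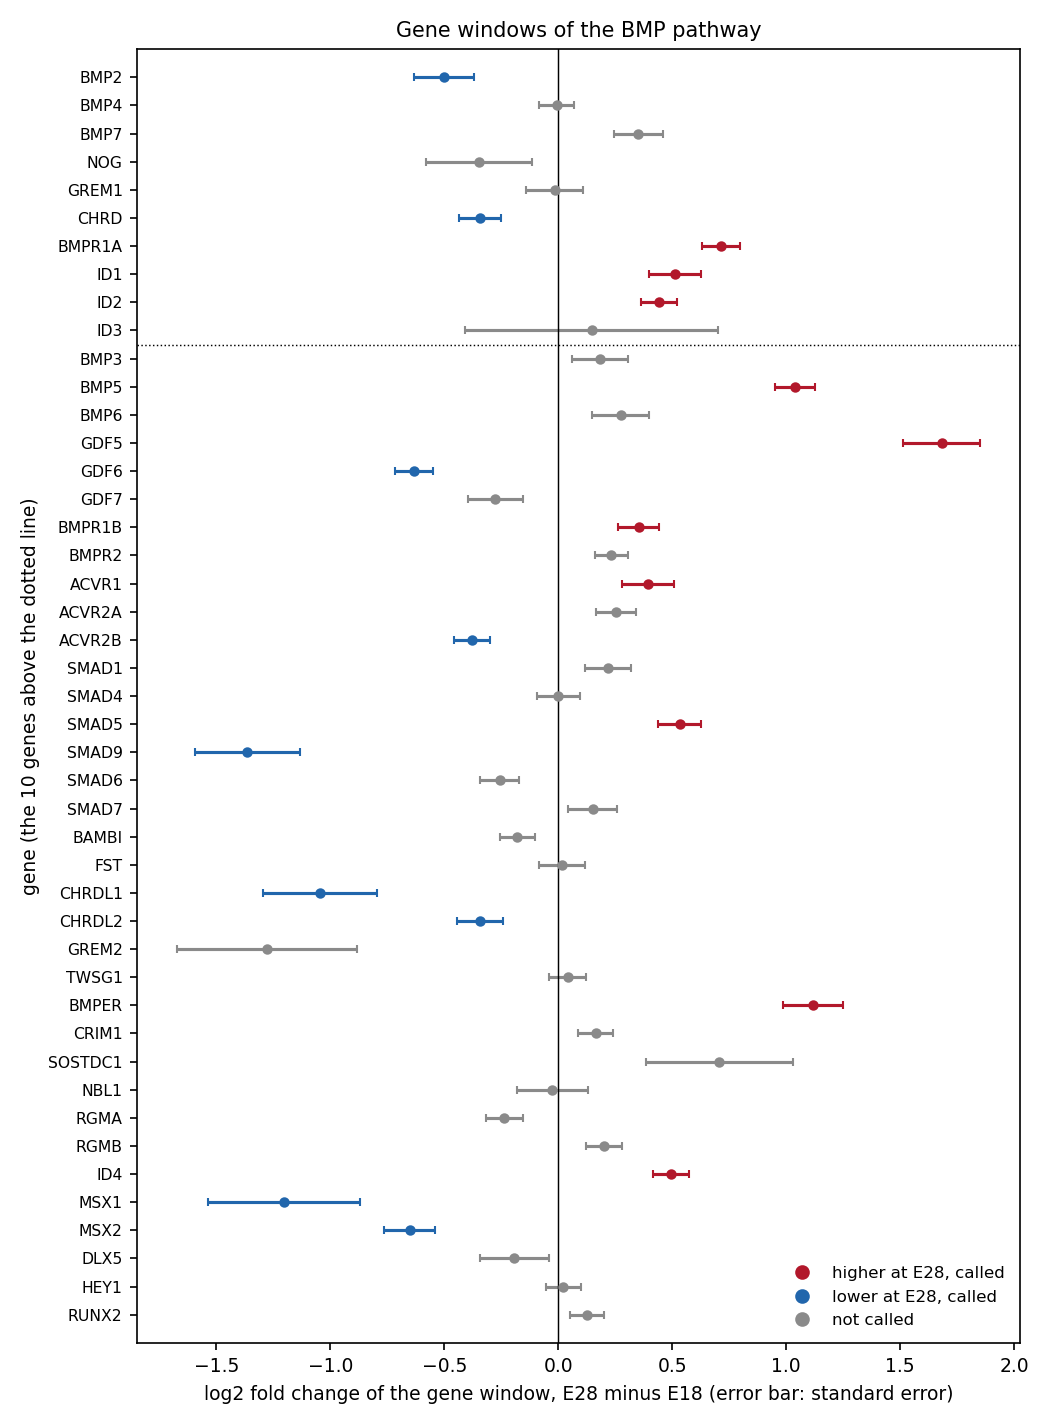
Log2 fold change of the gene windows between E28 and E18 (x axis, bars are standard errors) for the 10 genes, above the dotted line, and 35 of the 36 further pathway genes (CER1, at 0 in 4 libraries, is left out). Red windows were called higher, blue lower and grey not called, and the values run from -1.36 for SMAD9 to 1.68 for GDF5.

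The largest rise was in GDF5, the ligand of joint and tendon, which stood at 10.9 and 9.07 CPM in the E18 pair, 10.9 and 12.7 in the E21 pair and 29.8 and 34.3 in the E28 pair. The log2 fold change was 1.68 ± 0.17 (edgeR adjusted p = 0.00490), and it was the only 1 of the 36 called between E28 and E21 (1.44, adjusted p = 0.0260). BMPER, a secreted BMP-binding protein, changed by 1.12 and BMP5, a ligand of the BMP7 subgroup, by 1.04 (edgeR adjusted p = 0.00625 and 0.00393). Without E21 ZZ or E21 DZ this later GDF5 call was lost (adjusted p = 0.161 and 0.0984). BMP5 was the only 1 called between E21 and E18 (0.68, adjusted p = 0.0449), a call that was lost without any 1 of the 4 E18 and E21 libraries (adjusted p from 0.149 to 0.317) and with peaks by midpoint (adjusted p = 0.0570), and that turned to -0.22 with promoter peaks alone (adjusted p = 0.611). With promoter peaks alone the changes from E18 to E28 became -0.38 for BMPER and -0.16 for BMP5, so their rise lay outside the promoters. The BMPER window also had more called sequence at E28, 31167 bp in ZZ (E18: 21745) and 27133 bp in DZ (E18: 19695). Per called base its change was 0.60, little over the window median of 0.54, whereas BMP5 gave 0.96 and GDF5 1.93. SMAD5 rose by 0.53 and ID4, the remaining ID gene, by 0.49 (edgeR adjusted p = 0.0126 and 0.00983). The ID1, ID2 and ID4 windows were thus called higher in CPM and the ID3 window was not, whereas per called base the ID1 and ID4 windows (0.51 and 0.55) lay close to the window median of 0.54 and the SMAD5 window (0.49) lay under it.

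The largest falls were in SMAD9 (-1.36 ± 0.23), the homeobox targets MSX1 (-1.20 ± 0.33) and MSX2 (-0.65 ± 0.11), the antagonist CHRDL1 (-1.04 ± 0.25) and the ligand GDF6 (-0.63 ± 0.08), with edgeR adjusted p from 0.00723 to 0.0388. MSX1 stood at 78.5 and 56.6 CPM at E18 and 20.9 and 38.6 at E28. Per called base, SMAD9 and MSX2 turned to 0.45 and 0.27, beside the median of 0.54 over all windows on that scale, so both stayed below that median. Where only peaks with their midpoint in the window were counted, MSX1 turned to 1.05 (adjusted p = 0.740). Of the 10 pathway genes named here, 8 lost their call between E28 and E18 without E18 DZ, and GDF5 and BMP5 kept it. Over all windows that fit called 5.26% in place of 42.4%.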

How the data were processed

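Single-cell ATAC-seq libraries of pig somites (E18, E21) and myotomes (E28) of ZZ and DZ were used. The authors aligned reads to Sscrofa11.1, called peaks in each library separately and named cells with Cell Ranger ATAC, Seurat 3.1.1 and Signac 0.2.2 (roles as the submitters' processing notes and the methods give them). The deposited matrices hold raw counts of cut sites per peak and barcode, not normalized, and between 90.1% and 92.4% of the nonzero counts were even, as both ends of a fragment count. The deposited peak lists give positions with no score.

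Barcodes with 2000 to 30000 counts were kept (58809 of 64439). The study set these bounds on fragments, and as both ends of a fragment count, 4000 to 60000 counts, used as an alternative, is nearer to them. No doublet caller was run, and no other per-cell filter of the study was applied. Counts were summed per library over gene windows (RefSeq annotation of Sscrofa11.1, which paired all 10 genes by symbol) and over regions merged from peaks that overlapped by at least 1 bp. A peak that overlapped a window by at least 1 bp counted whole. A promoter region overlapped the 2000 bp before an annotated transcript start. Sums were tested with the edgeR 4.0.16 quasi-likelihood test (R 4.3.3, TMM, filterByExpr, terms for stage and breed, Benjamini-Hochberg over all windows or regions, threshold 0.05) and checked on simulated data. Cells were not treated as replicates. The standard error is the absolute log2 fold change divided by the square root of F.

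Alternatives were DESeq2 1.42.0 (Wald test), other size factors, no low-count filter, barcodes with 4000 to 60000 counts, covered length as an offset, no second term, peaks by midpoint, promoter peaks alone, and each library left out. Library size without TMM was added after the data were seen. Shares of barcodes with a cut were also given as the exact expectation after thinning each barcode to 4000 counts, which left out 468 to 1685 barcodes per library, and cover these barcodes alone. Promoter and region sequences came from the Sscrofa11.1 genome.

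The genes and gene lists were chosen with earlier results of these data known. The text names all 10 genes, their promoter regions, the tested region of each gene with the largest change and that with the highest level, and the 5 further pathway windows with the largest rise and fall among those called. Further BMP7 and BMPR1A regions were named after their values were seen.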

Additional observations from a re-analysis of the deposited data

Results flagged for a closer look

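In several places the 2 breeds moved in opposite directions between E18 and E28. With 1 library per stage and breed, each value below is a log2 ratio of 1 library to another, and the difference between breeds was not tested. The ID3 window changed by -1.05 in ZZ and 1.33 in DZ, and the NOG window by -0.756 in ZZ and 0.0113 in DZ. In both, the called length in the window differed between libraries as given above, and the NOG region merged across libraries gave -0.0976 and 0.0326. The BMP7 intron region at chr17:57650118-57654774 changed by 1.06 in ZZ (12.6 to 26.1 CPM) and -0.27 in DZ (13.0 to 10.8 CPM), with 3512 and 2322 bp called at E28. The GREM1 window changed by 0.16 in ZZ and -0.19 in DZ, and the GREM1 promoter region by 0.16 and -0.17. The BMP4 window changed by 0.0414 and -0.0551, and the BMP4 region by 0.0001 and -0.0338.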

How the results depend on the processing

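Over single genes and regions, 497 of 610 values under another setting kept direction and side of the threshold, 60 lost and 18 gained a call, and 35 turned direction. The covered-length offset turned 13 of these against 0, while it moved the median of all windows to 0.54 and of all regions to 0.43. Leaving out the E18 DZ library ended the most calls (21).

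Of the 10 windows, DESeq2 called 3 (E21 against E18) and 2 (E28 against E21), and the offset, which also raised its share of all windows as given above, 4 and 4, where the reported counts were 0 and 0. Between E28 and E18, midpoint peaks and promoter peaks each called 3 in place of 5 (40.0% and 32.5% of all windows, in place of 42.4%). Of the 24 regions, DESeq2 called 3 and 5, the offset 5 and 10, and library size without TMM 2 and 2, in place of 1 and 0. Of all regions, DESeq2 called 18.1% and 19.7%, and library size without TMM 9.37% and 7.72%. The offset called 19 (18 higher, 1 lower) in place of 11 (9 and 2) between E28 and E18, beside 52.2% in place of 37.1% of all regions. Of the 36 pathway windows, DESeq2 called 12, 24 and 12 (E21 against E18, E28 against E18, E28 against E21) in place of 1, 15 and 1, beside 34.1%, 61.4% and 34.5% of all windows. The offset called 5 (E21 against E18) and 14 (E28 against E21), beside 20.8% and 43.1% of all windows. Between E21 and E18, no breed term called 3 (3.47% of all windows) and midpoint peaks 0 (0.755%). Between E28 and E21, promoter peaks called 2 (2.24% of all windows). Leaving out 1 library gave 0 to 4 windows (E28 against E18) and 0 to 1 (E28 against E21), 0 to 5 regions (E21 against E18), 3 to 11 (E28 against E18) and 0 to 5 (E28 against E21), and 0 to 6, 2 to 16 and 0 to 2 pathway windows. In the same fits 5.26% to 40.8%, 0.13% to 13.7% and 0.0% to 12.4% of all windows were called (E28 against E18, E28 against E21, E21 against E18), and 8740 to 30864 of all regions (E28 against E18), with 0.0% to 20.6% and 0.0% to 21.7% in the other contrasts. The lows between E28 and E18 came without E18 DZ. No alternative called a window or region of these genes between breeds.

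Log2 changes that turned were as follows. With the offset, the windows gave BMP4 0.0097, NOG 0.19, GREM1 0.73, CHRD 0.54, SMAD9 0.45 and MSX2 0.27, and the regions BMP4 0.0172, NOG 0.0321, GREM1 0.68, the CHRD promoter 0.30, a BMPR1A intron 0.0043, and BMP7 introns 0.0711 and 0.89. These turned against 0, while the offset moved the median of all windows to 0.54 and of all regions to 0.43. Only the GREM1 window, the GREM1 region and the BMP7 intron at 0.89 lay clearly over those medians. CHRD matched the window median, and the rest lay under. With library size without TMM, BMP4 gave 0.0284 (window and region), GREM1 0.0206 and 0.0408, and the NOG region 0.0130. The NOG region gave 0.0125 with 4000 to 60000 counts, and the GREM1 region 0.0077 with DESeq2 and with its size factors. Promoter peaks gave BMPER -0.38 and BMP5 -0.16, and midpoint peaks MSX1 1.05. With 1 library left out, windows that turned ran from -0.0591 to 0.0368 (BMP4), -0.83 to 0.0292 (NOG), -0.21 to 0.12 (GREM1) and -0.82 to 1.06 (ID3), and regions from -0.28 to 1.07 (a BMP7 intron), -0.12 to 0.0552 (NOG) and -0.18 to 0.16 (GREM1). The cause was not tested beyond what the settings change. A lone library at a stage was assumed to vary like the others. Stages were compared within breed through the breed term, and the fit without that term is among the alternatives. Each stage and breed has 1 library, so no further block could be fitted.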
